A study of Mus musculus with 4 samples.

Results

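MBT2 is a mouse bladder tumour line that grows in C3H mice, and here it was described by the single-base substitutions listed in its messenger RNA. Of 6361 sequence differences from the reference genome listed for the line, the 3169 in which 1 base was replaced by 1 other base were taken, and each such site is called a record. They make up 3169 of the 5971 substitutions listed in the whole study. The alternative-allele fraction of a record, the share of its reads that carry the replaced base, was computed from the reads of both libraries together. It placed 353 records above 0.6 (11.1%, exact 95% interval 10.1 to 12.3), 379 from 0.2 to 0.6 (11.96%, 10.8 to 13.1) and 2437 under 0.2 (76.9%, 75.4 to 78.4). These fractions made the bands and are given as a description, while effect, base change and chromosome were not used to make them. The reads of both libraries made the bands, so agreement of the libraries within a band is also given as a description. The cells are labelled as clone number 63 of a line syngeneic with C3H/HeN mice. They were cultured untreated in RPMI-1640 with serum and antibiotics, and RNA was taken in duplicate. Nothing in the labels tells if the pair came from different culture dishes, and p-values that compare the libraries may therefore measure technical spread alone.

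A tumour line that came from an inbred mouse carries alleles inherited from its strain together with mutations gained in the tumour and in culture. A list made from RNA can hold both, and it can also hold bases changed in the RNA itself by editing enzymes, which turn adenosine into inosine that is read as guanosine, and errors made while libraries are prepared and read. The reference genome is that of another strain, C57BL/6J, and no normal C3H sample was called beside the line. In RNA the fraction also depends on how strongly each copy is transcribed and on how many copies the cell holds. A fraction in a pool of cells cannot tell fewer cells with an allele from less RNA of that allele in each cell.

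The codons below stand for the classes of record that the values return to: a tumour suppressor gene, 2 gained stop codons, a set of deep missense records at 0.2 or more, among them Slc16a1 with a fraction near equal shares, and 3 records of low fraction. Each line gives the unchanged transcript, 5′ to 3′, with the codon that changes in capitals and 12 bases on each side, read from GENCODE M21 transcripts of the build GRCm38 by transcript identifier.
Trp53 C239Y: tgtaatagctccTGCatggggggcatg
Chpf E573*: gtggcagagctaGAGcggcgtttccct
Nup155 R885*: cttcagcgttccCGAcaagttcagagt
Eef1g W322S: ggctggtccctgTGGtatgccgagtac
Hnrnpu D459Y: gtccccttagagGACcgagttagagga
Rpl27 G16V: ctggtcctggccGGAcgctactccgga
Eif3g D125Y: acagtcagtgatGACgtctctatgaca
Cnot6 D525Y: cttattccctctGACcacttctcactt
Srsf5 A131S: ttcatgagacaaGCTggggaagtaacc
Calm2 N54Y: caggacatgatcAATgaagtagatgcg
Cdc42 N92S: tcctcatttgaaAATgtgaaagaaaag
Slc16a1 A460P: aaagaggacgagGCCagcaccgatgtc
Azin1 S367G: caaattgtggaaAGCtgtcttcttcct
Psmd4 M358T: attcgaagtgtcATGggggctctggcc
Maged1 A763T: accgccaacttcGCCgccaacttcggt

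Library 1 held 334264 reads at the substitutions and library 2 held 355692, with median depths of 63 and 67 reads a record. Of the records, 2961 were annotated to 2301 genes and 208 were intergenic. Depth differed widely between bands: the median over both libraries together was 37 reads above 0.6, 266 from 0.2 to 0.6 and 122 under 0.2. The records above 0.6 fell in 268 genes, those from 0.2 to 0.6 in 339 and those under 0.2 in 1874. All intervals on shares are exact Clopper-Pearson 95% intervals and cover counting error only. Reads copied from the same molecule by amplification may be counted apart, and records of the same gene may share their source. None of 18 urothelial marker genes, such as uroplakins and keratins, held any listed record, and the list gives no expression levels, so the labelled tissue could not be checked from it. Of 8 markers of fibroblasts and mesenchyme, Col3a1 and Pdgfra held substitutions, and none of 5 blood and 3 endothelial markers did.

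The fractions did not fill the range evenly, and what was listed depended on depth. Only 3 of the 3169 records lay between 0.4 and 0.6, all on chromosome 3. The smallest depth among listed records rose toward equal shares of the alleles, from 50 reads at fractions of 0.2 to 0.25 to 138 at 0.3 to 0.35 and 247 at 0.35 to 0.4. On the other side it fell from 319 reads at 0.6 to 0.65 to 92 at 0.7 to 0.75 and 14 at 0.95 to 1. Of 441 records with fewer than 40 reads, 182 lay above 0.6 and 259 under 0.2, with none from 0.2 to 0.6. No record of that depth had a fraction between 0.162 and 0.848. Of 628 records with 300 or more reads, 163 lay from 0.2 to 0.6 (26.0%) and 55 above 0.6 (8.76%). The authors' filters included a test for germline alleles, all records here had passed the filters, and their part in this outline was not tested.

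**Figure D1:**
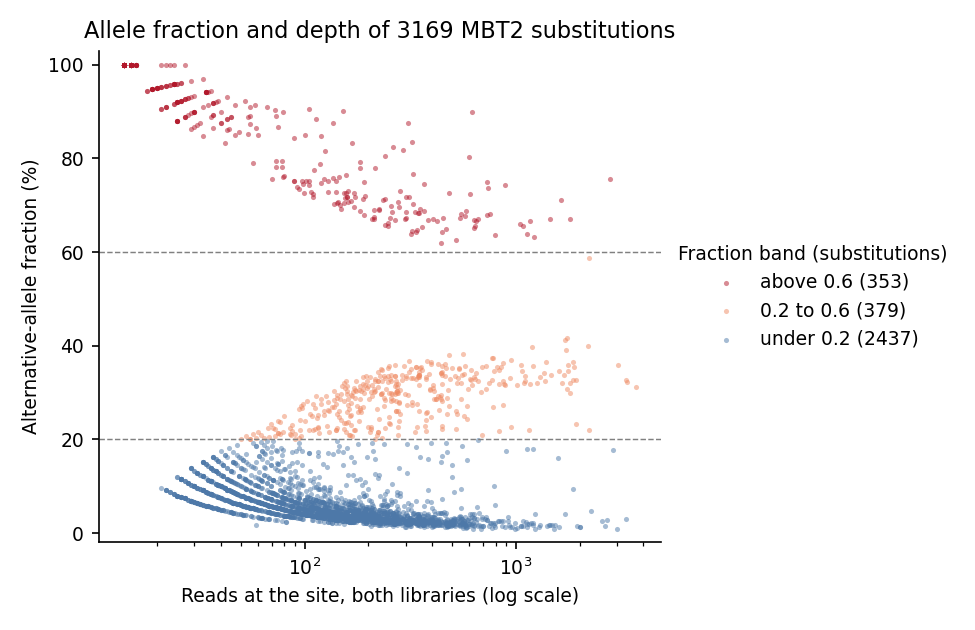
Alternative-allele fraction in percent (vertical axis) against reads at the site in both libraries (horizontal log axis), with 1 point for each of 3169 substitutions, coloured by band. Dashed lines mark 20% and 60%. The empty wedge around equal shares narrows with depth, and 3 points lie between 40% and 60%.

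The band above 0.6 was made of 2 sets that a limit of 0.8, chosen after the values were seen, separates. The 127 records from 0.6 to 0.8 had a median of 235 reads and a median fraction of 0.706. The 226 records above 0.8 had a median of 24 reads, and 84 of them had no reference read at all, at depths of 14 to 27 reads. The deeper set was mostly in coding sequence, with 58 missense records (45.7%, 36.8 to 54.7) and 21 synonymous ones. The shallow set held 68 intergenic records (30.1%), 53 upstream or downstream of a gene, 42 intronic (18.6%) and 13 at splice sites, with 8 missense records (3.54%, 1.54 to 6.86). Of records above 0.8, 17.3% (12.6 to 22.8) matched an allele of the germline resource given to the caller, against 3.15% (0.865 to 7.87) from 0.6 to 0.8 and 1.58% (0.583 to 3.41) from 0.2 to 0.6.

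The 2 libraries gave nearly the same band to each record. Both put 3041 of 3169 in the same band (96.0%, 95.2 to 96.6). Of 350 records that library 1 alone put above 0.6, library 2 put 349 there. Of 385 that library 1 put from 0.2 to 0.6, library 2 put 333 in that band (86.5%), 49 under 0.2 and 3 above 0.6. Of 2434 that library 1 put under 0.2, library 2 put 2359 there (96.9%) and the other 75 from 0.2 to 0.6. Records chosen by library 1 had about the same median in library 2: 0.889 and 0.887 for the upper band, 0.296 and 0.298 for the middle band, and 0.0457 and 0.0455 for the lower band. In the lower band 284 records had no alternative read in 1 library, 146 in library 1 and 138 in library 2, and no record at 0.2 or more did.

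No record differed between the libraries after adjustment. The two-sided Fisher exact test with Benjamini-Hochberg adjustment over all 6361 records of the line called 0 (0%), and 3.76% had an unadjusted p under 0.05. Among substitutions the unadjusted count was 12 of 353 above 0.6 (3.40%), 25 of 379 from 0.2 to 0.6 (6.60%) and 60 of 2437 under 0.2 (2.46%), beside median depths of 37, 266 and 122 reads. The smallest p among substitutions belonged to St3gal1, a sialyltransferase, at a 3′ UTR site with 31 of 76 alternative reads in library 1 and 12 of 77 in library 2 (p = 6.08e-04, Fisher's exact test, adjusted p = 0.644). Ctnna1 I175V, in a catenin of cell junctions, had 123 of 405 and 178 of 443 reads (p = 0.00321, Fisher's exact test). Across records, which are not replicates, Pearson's correlation between the libraries was 0.821 within the upper band, 0.471 within the middle band and 0.251 within the lower one. The bands came from the summed reads of both libraries and limit the range of fractions behind each correlation. The difference between libraries divided by its expected counting error had an SD of 1.09, 1.04 and 1.04 in these bands, where counting error alone gives 1.

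**Figure D2:**
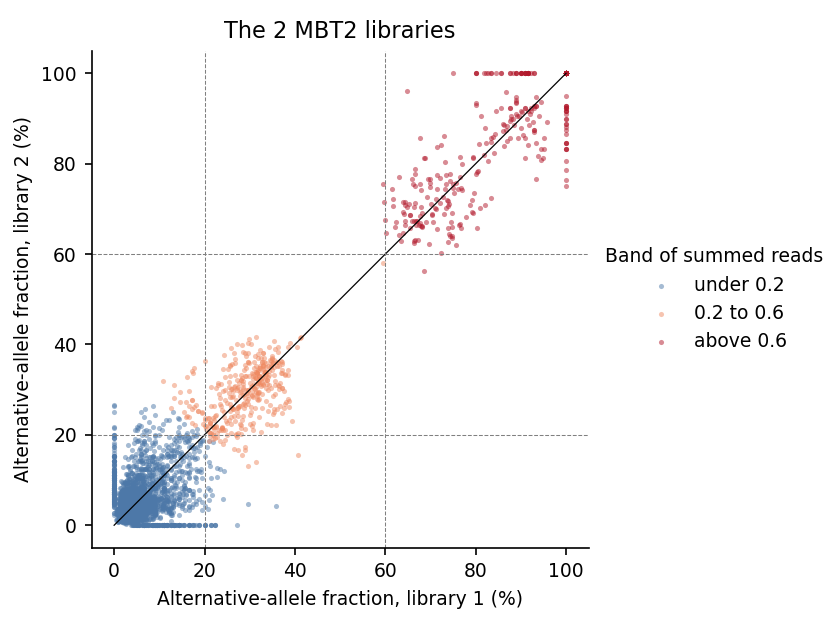
Alternative-allele fraction of each substitution in library 1 (horizontal axis, %) and library 2 (vertical axis, %), coloured by the band of the summed reads; the line marks equal values. The 353 upper and 379 middle records form separate clouds, and 284 lower records sit on an axis at 0.

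The kinds of sequence hit differed between the bands. Missense records made up 40.1% of the middle band (152 records, 35.1 to 45.2), 18.7% of the upper band (66, 14.8 to 23.2) and 22.0% of the lower band (537, 20.4 to 23.7). In the lower band, 3′ UTR records were the largest class with 46.6% (1136), against 30.6% (116) in the middle band and 12.5% (44) in the upper one. Intergenic records made up 20.96% of the upper band and 2.64% of the middle band, and intronic records 12.5% and 1.58%. Splice acceptor or donor records numbered 13 in the upper, 1 in the middle and 17 in the lower band.

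These differences were tested with two-sided Fisher exact tests over 20 class and band pairs, which count records of 1 list and not cultures. At 0.2 or more against under 0.2, missense records had an odds ratio of 1.501 (adjusted p = 6.29e-05, Fisher's exact test) and 3′ UTR records 0.320 (adjusted p = 2.65e-33). With band limits of 0.1 and 0.5 the missense call was lost (adjusted p = 0.197, Fisher's exact test). Above 0.6 against 0.2 to 0.6, the odds ratio was 0.343 for missense (adjusted p = 1.40e-09) and 9.79 for intergenic records (adjusted p = 6.06e-15, Fisher's exact test). These contrasts of the upper with the middle band moved with depth. Among records with at least 40 reads, missense made up 36.3% of 171 upper records (29.1 to 43.9) and 40.1% of 379 middle ones, with an adjusted p of 0.530 by Fisher's exact test. Intergenic records then made up 5.85% and 2.64% (adjusted p = 0.184, Fisher's exact test). At 100 or more reads the missense share was 40.2% above 0.6 and 42.7% from 0.2 to 0.6, with 20.9% under 0.2.

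Among coding records that are missense or synonymous, the missense share was 73.4% (62.3 to 82.7) from 0.6 to 0.8, 72.4% (65.8 to 78.3) from 0.2 to 0.6 and 68.9% (65.6 to 72.2) under 0.2. These intervals overlap. Above 0.8 it was 34.8% (8 of 23, 16.4 to 57.3), an interval that lies below the other 3. In library 1 taken alone that share was 36.0% and in library 2 alone 40.7%.

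**Figure D3:**
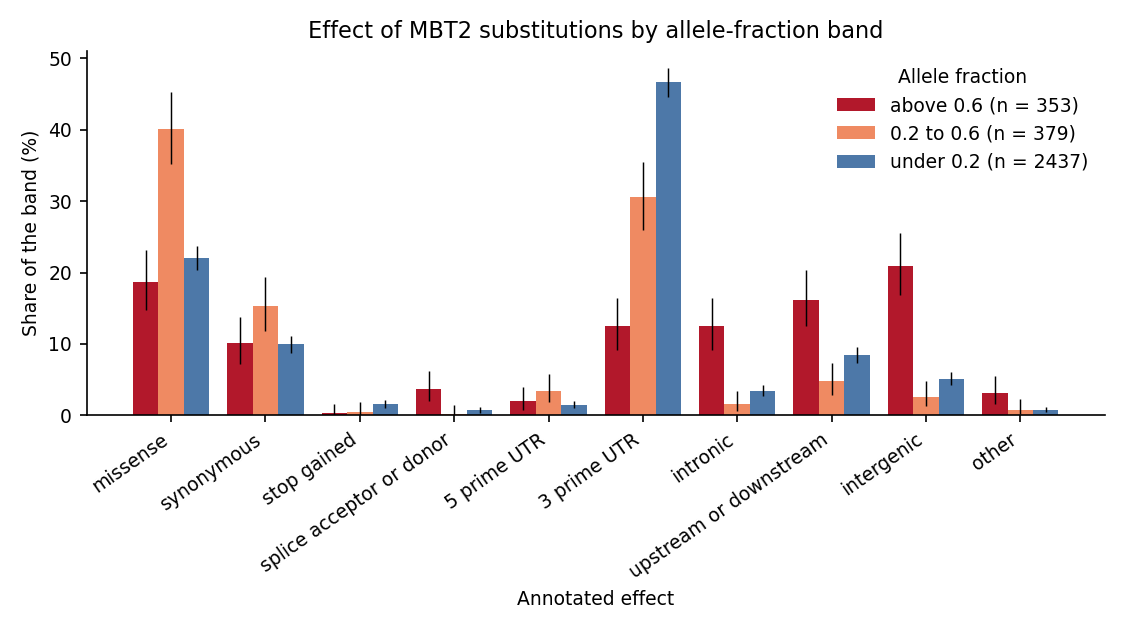
Share of each band (vertical axis, %) by annotated effect (horizontal axis); bars are shares of 353, 379 and 2437 records and lines are exact 95% intervals. Missense records peak in the middle band at 40.1%, 3′ UTR records in the lower band at 46.6% and intergenic records in the upper band at 20.96%.

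The base changes also differed by band. Written with the pyrimidine first, so that C>A also stands for G>T on the other strand, C>A made up 18.4% of the upper band (65 records), 25.9% of the middle band (98) and 3.61% of the lower band (88). The odds ratio at 0.2 or more against under 0.2 was 7.65 (163 of 732 and 88 of 2437, adjusted p = 8.82e-49, Fisher's exact test over 12 tests). T>C went the other way, with 28.6% at 0.2 or more and 50.1% under 0.2 (odds ratio 0.399, adjusted p = 1.39e-24, Fisher's exact test). C>G made up 7.38% and 2.42% (odds ratio 3.21, adjusted p = 1.82e-08) and T>A 10.5% and 6.24% (odds ratio 1.77, adjusted p = 5.01e-04), both by Fisher's exact test. Those 2 calls were lost when only records more than 5 bases from the read end were kept, with adjusted p of 0.118 and 0.0702 by Fisher's exact test. C>T made up 26.9% and 32.8% (odds ratio 0.755, adjusted p = 0.00653) and T>G 4.37% and 4.88% (adjusted p = 0.746), both by Fisher's exact test. Between the upper and middle bands C>A had an odds ratio of 0.647 (adjusted p = 0.0330), and that call was lost with library 2 alone (adjusted p = 0.0700) and with library 1 alone (adjusted p = 0.1003), all by Fisher's exact test. Within the upper band C>A made up 32.3% (24.3 to 41.2) from 0.6 to 0.8 and 10.6% (6.92 to 15.4) above 0.8.

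Each change was then written as it stands in the RNA sequence, with the annotated strand known for 99.8% of records in genes. Written so, the changes at 0.2 or more were uneven between strands. G>T on the RNA numbered 127 against 35 for its complement C>A, a share of 78.4% (71.3 to 84.5). Strands hit evenly would give equal counts only where both bases are equally frequent, and base composition was not taken into account. From 0.2 to 0.6 the counts were 77 and 21, from 0.6 to 0.8 they were 34 and 7, and above 0.8 they were 16 and 7. Library 1 alone gave 122 and 34 at 0.2 or more and library 2 alone gave 130 and 36. Under 0.2 the counts were 47 and 35 (57.3%, 45.9 to 68.2). In the middle band the counts were 21 and 5 in 3′ UTRs (60.6 to 93.4% G>T) and 48 and 14 in missense and synonymous records (65.0 to 87.1%). In the 10 other records they were 8 and 2, with an interval of 44.4 to 97.5% that includes an even split.

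Other changes of a purine on the RNA leaned to the same side from 0.2 to 0.8. A>G numbered 86 against 17 for T>C from 0.2 to 0.6 (83.5%, 74.9 to 90.1) and 23 against 3 from 0.6 to 0.8, but 26 against 26 above 0.8. A>T numbered 30 and 10 from 0.2 to 0.6 (75%, 58.8 to 87.3). G>C numbered 17 and 1 from 0.6 to 0.8 (94.4%, 72.7 to 99.9) and 13 and 11 from 0.2 to 0.6 (54.2%, 32.8 to 74.4). G>A and C>T, in contrast, numbered 46 and 46 from 0.2 to 0.6 and 12 and 17 from 0.6 to 0.8. An A>G record in RNA can be a DNA allele or an edited base, and these cannot be told apart here. The share of A>G at 0.2 or more was 74.6% over all depths and 82.6% among records with at least 40 reads.

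Under 0.2 the sides were different. G>A numbered 607 against 144 for C>T (80.8%, 77.8 to 83.6), T>C 674 against 499 for A>G, T>A 91 against 51 for A>T and T>G 90 against 24 for A>C. The lower band also stood apart in where the changed base lay in its reads. The median distance from the read end was 2 bases under 0.2, 19 from 0.2 to 0.6 and 18 above 0.6, and 64.0% (62.1 to 65.9) of lower records lay within 5 bases of the end, against 1.58% of middle and 12.2% of upper ones. Among the 1538 of these near-end lower records with a known strand, T>C (611) and G>A (447) were the most frequent changes. Among 771 lower records farther from the end, A>G led with 267 (34.6%), followed by G>A with 160 and C>T with 108. The part of read ends in the lower band was not tested. With only records more than 5 bases from the end, 310 upper, 373 middle and 877 lower records remained, and G>T made up 78.3% of G>T and C>A at 0.2 or more.

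**Figure D4:**
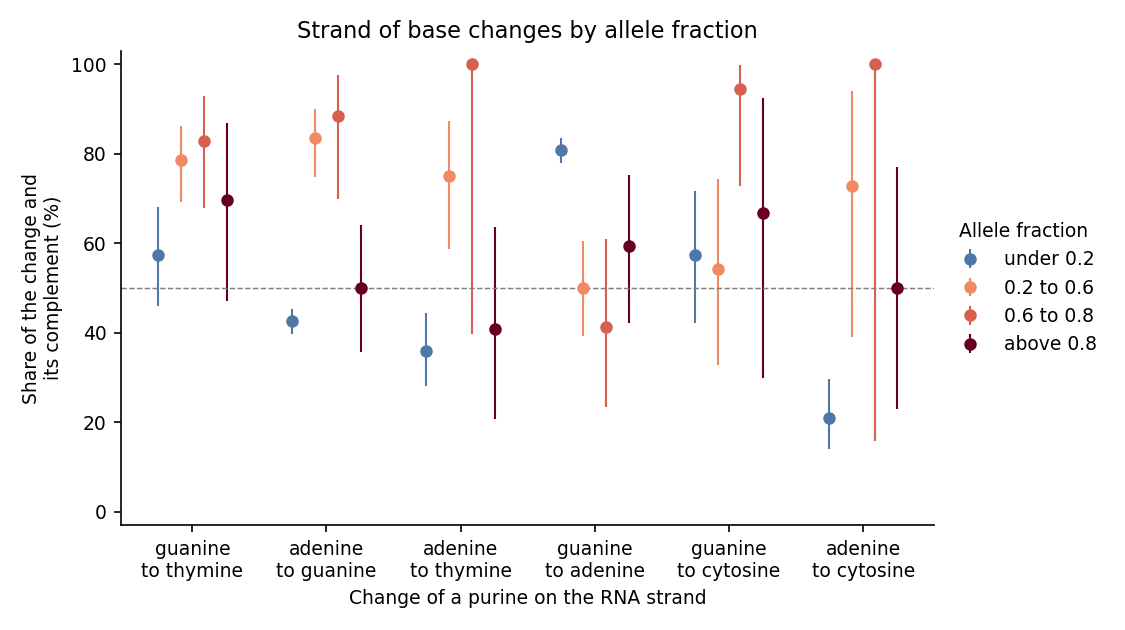
Share (vertical axis, %) of each purine change among that change and its complement on the RNA strand, by allele fraction; points are shares, lines are exact 95% intervals and the dashed line is an even split. From 0.2 to 0.8, guanine to thymine and adenine to guanine lie above the even split, while guanine to adenine lies above it under 0.2, at 80.8%.

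The bases around the change differed as well. Among coding C>T records, on either strand, the C was followed by G in 34.2% at 0.2 or more (26 of 76, 23.7 to 46.0) and in 18.8% under 0.2 (61 of 325, 14.7 to 23.4), where 11.2% of C and G bases of these coding sequences lie in this context. Coding G>T records at 0.2 or more were preceded by T in 34 of 71 cases (47.9%, 35.9 to 60.1) and by C in 2 (2.82%). The same coding sequences have T before 30.0% of their G bases and C before 10.9%. Single-base records next to each other formed 32 pairs, of which 27 lay under 0.2. All 4 pairs with both members at 0.2 or more had equal alternative reads in each library: Smyd2 L340V and M339I (33.8%), Dync1h1 R3726S with a synonymous neighbour (34.2%), Nup155 R885* with the synonymous S884 (22.0%), and a pair beside Psph and Cct6a (94.7% of 19 reads).

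Of 58 genes recurrently mutated in bladder cancer, 22 held a substitution. Of these 22, 6 held a protein-altering one at 0.2 or more (7 records), beside 228 of 2301 over all genes with a substitution (237 records). For this and the other gene lists, the share of all genes that held a substitution was not computed. The number of listed genes with a substitution is therefore not read as a result. The 27 records of the list had a median fraction of 8.33%, against 5.88% over all 2961 records in genes.

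Trp53, the gene of the p53 tumour suppressor that halts the cell cycle after DNA damage, held 2 records of unlike fraction. A splice acceptor change of exon 4 (chromosome 11, position 69479189 of GRCm39, G>T on the RNA) was read in 61 of 68 reads in library 1 and 76 of 84 in library 2, or 90.1% (84.2 to 94.4). C239Y, at a cysteine that holds the zinc ion of the DNA-binding domain (position 69480019, exon 7), was read in 184 of 549 and 164 of 539 reads, or 32.0% (29.2 to 34.8). The 2 libraries gave 33.5% and 30.4% for C239Y, which did not differ beyond counting error (p = 0.298, Fisher's exact test). The splice acceptor base was covered by 152 reads and C239Y by 1088.

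Setd2, which methylates histone H3 in transcribed genes, had the stop codon E759* in 93 of 126 and 109 of 174 reads (67.3%, 61.7 to 72.6). Library 1 read it at 73.8% and library 2 at 62.6%.

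Records of 3 further driver genes lay close to each other, in a middle band whose fractions had quartiles of 0.250 and 0.331. Nothing particular to these genes is read from this closeness. Ncor1 Y973C, in a corepressor of nuclear receptors, was read at 34.9% (40 of 115 and 41 of 117 reads). Crebbp E1551Q, in a histone acetyltransferase, was read at 32.6% (27 of 84 and 30 of 91 reads). Sptan1 G284S, in a spectrin of the membrane skeleton, was read at 32.1% (82 of 268 and 87 of 259 reads). In each of these 3 the libraries differed by less than their counting error. Hras held 1 splice site record at 1.04% of 579 reads and Nras 1 record in its 3′ UTR at 12.8% of 304 reads.

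Of 50 DNA repair genes, 11 held 15 substitutions. None of these 11 held a protein-altering record at 0.2 or more, beside 228 of 2301 over all genes with a substitution, and nothing particular to the list is read from this count. The 15 records had a median fraction of 5.71%. Mre11a, a nuclease of double-strand breaks, held the synonymous T678 at 32.9% of 252 reads and a 3′ UTR record at 20.97% of 62. Stop codon W1166* in Pole, the replicative polymerase epsilon, was read in 2 of 139 and 4 of 122 reads (2.30%) at a median distance of 1 base from the read end. Atm held S1887N at 3.48% of 115 reads and K1184E at 5.26% of 57.

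Antigen presentation was represented by H2-K1, a class I heavy chain that shows peptides to T cells and belongs to the most variable genes between mouse strains. Y277N was read in 140 of 385 and 150 of 391 reads (37.4%, 34.0 to 40.9) and Q285E in 63 of 221 and 68 of 222 (29.6%, 25.4 to 34.1). Reads at this gene may be split among near-identical class I genes, so both fractions are uncertain. Of the list's 28 genes, 5 held a substitution. Of these 5, only H2-K1 held a protein-altering record at 0.2 or more, beside 228 of 2301 over all genes with a substitution. Jak2, a cytokine receptor kinase, held the synonymous A276 at 75.2% of 141 reads.

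Of 40 extracellular matrix genes, 11 held a substitution and 3 of these held a protein-altering one at 0.2 or more (4 records), beside 228 of 2301 over all genes with a substitution. Col3a1, the chain of type III collagen, carried G950A at 71.03% (540 of 779 and 620 of 854 reads) and P711H at 36.4% (256 of 689 and 247 of 691 reads). Lamc1 D1589N, in a laminin chain of basement membranes, was read at 36.2% in both libraries together, with 36.3% and 36.2% in each. Fbn1 A2826T, in the microfibril protein fibrillin, was read at 32.5% (32.0% and 33.0%). Synonymous records of Col5a1 (32.5%) and Itga6 (32.3%) had similar fractions. The median over the list's 20 records was 5.75%.

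Among 36 cell cycle genes, Hjurp, the chaperone that places the centromeric histone, held the most substitutions of any gene in the lower band. Its 12 records lay within 11952 bases and ranged from 9.50% to 33.8%, 10 of them under 0.2. R350H stood highest, with 56 of 173 and 61 of 173 reads, while the deepest record, in the 3′ UTR, had 50 of 262 and 53 of 293 reads (18.6%). These Hjurp bases lay 11 to 28 bases from the read end, unlike most of the lower band. The median over the 34 records of the list, 12 of them in Hjurp, was 11.4%, against 5.88% over all 2961 records in genes. Plk1, a mitotic kinase, held I192T at 21.6% and a splice donor change 4 bases away at 25.8%, at median distances of 5 and 1 bases from the read end. Of the 25 urothelial and epithelial genes none held a substitution, and of 14 genes of other cell types Pdgfra F321L was listed at 3.16% of 95 reads. The share of all genes with a substitution was not computed, and nothing is read from these counts.

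Known sites of RNA editing were found at unlike fractions. Azin1 S367G, a recoding site edited by adenosine deaminases in an inhibitor of antizyme, was read in 32 of 602 reads in library 1 (5.32%) and 19 of 628 in library 2 (3.03%), or 4.15% (3.10 to 5.42). The base before it, in the codon of E366, changed from A to G at 0.816% of 1225 reads. Cog3 I635V, in a Golgi tethering complex and also a known recoding site, was read in 15 of 61 and 13 of 69 reads (21.5%, 14.8 to 29.6), with 24.6% and 18.8% in the libraries. Of 19 editing targets looked up, 6 held 10 substitutions, and Cnot6 D525Y (68.1%) is a G>T change that adenosine deamination does not make.

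Truncating changes and changed start or stop codons were few at 0.2 or more. Besides Setd2 E759*, the stop codons were Chpf E573* in a chondroitin synthesis factor, with 58 of 213 and 62 of 207 reads (28.6%, 24.3 to 33.2), and Nup155 R885* in a nuclear pore scaffold, with 13 of 70 and 18 of 71 (22.0%, 15.5 to 29.7). Dnajc10, which reduces disulfides in the endoplasmic reticulum, had its start codon changed (M1I) in 50 of 172 and 34 of 197 reads, 29.1% and 17.3% (p = 0.00879, Fisher's exact test, unadjusted). Tmed3, of the early secretory pathway, had its stop codon changed to tryptophan (*222W) in 30 of 124 and 49 of 142 reads (29.7%). Under 0.2 there were 38 gained stop codons, 1.56% of that band against 0.410% at 0.2 or more (odds ratio 0.260 at 0.2 or more, adjusted p = 0.0217, Fisher's exact test). That call was lost among records with at least 40 reads (adjusted p = 0.184, Fisher's exact test). Of the 38, 16 turned a tryptophan codon into a stop by G>A, a change that made up 607 of 2309 lower records with a known strand. Within 5 bases of the read end lay 15 of the 38, beside 1560 of all 2437 lower records (64.0%).

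Splice site records above 0.6 were all above 0.8 and mostly shallow. Ubxn6, a cofactor of the segregase p97, was the deepest with 132 of 152 and 137 of 155 reads (87.6%, 83.4 to 91.1), followed by Trp53 and by Thap3 with 46 of 52 and 54 of 61 (88.5%). Iqgap1, a scaffold of the actin cortex, held a splice site change at 85.2% of 54 reads, a 3′ UTR record at 90.0% (265 of 298 and 294 of 323 reads) and the synonymous H1172 at 82.5%. Tnrc6c, Phf20 and Adgrg1 were at 100% of 15, 14 and 16 reads, a depth at which the lower bounds were 78.2%, 76.8% and 79.4%. The bases counted at a splice site are intronic, so its fraction describes the reads that reach into the intron and not the whole output of the gene.

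Among the deepest missense records above 0.6, Eef1g W322S, in the gamma subunit of translation elongation factor 1 (chromosome 19, position 8954789, exon 8), was read in 1061 of 1381 and 1047 of 1404 reads (75.7%, 74.1 to 77.3). Cltc H1458L, in the clathrin heavy chain, was read in 326 of 544 and 397 of 588 reads, 59.9% and 67.5%, so that library 1 alone put it below 0.6 (p = 0.00927, Fisher's exact test, unadjusted). Gnl1 E138G was read at 74.3% and the collagen receptor Ddr2 A853D at 66.6%. The splicing factor Srsf5 A131S was read in 178 of 277 and 212 of 299 reads (67.7%) and the deadenylase Cnot6 D525Y in 180 of 266 and 193 of 282 (68.1%). Rabggtb V16I, in an enzyme that attaches lipid to Rab proteins, was read at 62.5% and Klk10 T268N, in a kallikrein-related peptidase, at 72.4%.

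Among the deepest missense records from 0.2 to 0.6, Hnrnpu D459Y, in a nuclear RNA-binding protein, was read in 333 of 898 and 343 of 951 reads (36.6%, 34.4 to 38.8). Rpl27 G16V, in a protein of the large ribosomal subunit, was read in 303 of 857 and 331 of 905 (36.0%, 33.7 to 38.3). Eif3g D125Y, in translation initiation factor 3, was lower, with 231 of 1086 and 258 of 1135 reads (22.0%, 20.3 to 23.8). Calm2 N54Y, in 1 of the calmodulin genes, was read at 32.6% (323 of 944 and 305 of 981 reads). Cdc42 N92S, in a small GTPase of cell shape, was read at 32.7% (305 of 912 and 301 of 939 reads) and was the only record of chromosome 4 from 0.2 to 0.6. The interval of Eif3g lies wholly below those of the other 4, and the intervals of Hnrnpu and Rpl27 overlap.

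Among the deepest missense records under 0.2, Cct5 G365C, in the chaperonin that folds actin and tubulin, was read in 243 of 1323 and 267 of 1552 reads (17.7%, 16.4 to 19.2). Another 8 lay between 0.878% and 4.15%. Maged1 A763T was read in 9 of 390 and 8 of 371 reads (2.23%) and Psmd4 M358T, in the ubiquitin receptor of the proteasome, in 6 of 312 and 4 of 371 (1.46%), at median distances of 1 and 2 bases from the read end. Hnrnpc E216K was read in 16 of 715 and 12 of 820 reads (1.82%) at a distance of 16 bases.

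Records nearest the limits show how little separates the bands at 0.2. Just inside were Oasl2 A120, a synonymous record with 18 of 104 and 25 of 111 reads (20%), and Ovgp1 K679M with 4 of 26 and 6 of 24 (20%). Just outside were Ddx54 A513V with 67 of 306 and 65 of 355 (19.97%) and Abi1 N323S with 14 of 67 and 14 of 75 (19.7%). Close to 0.6 were Slc16a1 A460P below (58.8%) and Rabggtb V16I above (62.5%).

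Of 16 genes with records both from 0.2 to 0.6 and above 0.6, 11 had an upper record from 0.6 to 0.8. In these 11 the 2 values summed to between 90.9% and 109.6%, with a median of 101.0%. Genes with an upper record above 0.8 were left out of these sums, among them Trp53 with 32.0% and 90.1% and Tuba1a with 31.7% and 81.9%. Cenpf, of the kinetochore, had 31.5% and 68.3%. Kdm2a, a histone demethylase, had 25.5% as the median of 2 records and 76.8% at S1074G. Eef1d, another elongation factor subunit, had 35.5% at A483P and 65.5% at a synonymous record, and Col3a1 had 36.4% and 71.03%. Slc16a1, the lactate transporter MCT1, whose records both lie from 0.2 to 0.6, had 58.8% at A460P (649 of 1089 and 658 of 1133 reads) and 41.6% at a 3′ UTR site (341 of 823 and 382 of 916 reads). Over 12 chromosomes with at least 5 middle records and 3 from 0.6 to 0.8, the 2 medians summed to 0.956 to 1.05, with a median of 1.01. The bands limit each of these values to a range, so the sums were bounded by the way the records were chosen, and no test was made.

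Chromosomes differed in the level of the middle band. Its median was 0.230 on chromosome 5, 0.251 on 19 and 0.260 on 15, against 0.326 on 1, 0.323 on 3 and 8, and 0.308 on 11. Depth moved with some of this: the middle records had a median of 168 reads on chromosome 5, 171.5 on 15 and 292 on 19, against 361 on 1 and 254.5 on 11. Among middle records with at least 200 reads, the median was 23.9% on chromosome 5 (17 records), 25.5% on 19 (10) and 32.9% on 15 (8), against 33.8% on 1 (18) and 32.5% on 11 (50). The low median of chromosome 15 thus did not hold at that depth, while those of 5 and 19 did. From 0.6 to 0.8 the medians were 0.755 on chromosome 19 (12 records) and 0.726 on 5 (15), but also 0.743 on 17 (5) and 0.722 on 1 (12), with the lower medians 0.679 on 11 (7) and 0.660 on 6 (3). Both libraries gave chromosome 19 a middle median of 0.261 and 0.232, and chromosome 1 one of 0.321 and 0.312.

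Chromosome 3 held all the fractions nearest to equal shares. Both Slc16a1 records lie near position 104562934. Further along, Ube2d3, a ubiquitin-conjugating enzyme, had 39.0% at a 3′ UTR site (311 of 808 and 359 of 908 reads), and Eif4e I78K, in the cap-binding translation factor, had 39.96% (441 of 1092 and 437 of 1105 reads) at position 138259431. Records between them were not all alike: Fam102b, at a synonymous site, had 24.3% of 588 reads and Extl2 H183Y 22.6% of 199.

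The share of records at 0.2 or more also varied by chromosome. It was 8.04% on chromosome 10 (9 of 112, adjusted p = 4.22e-04), 7.41% on 13 (6 of 81, adjusted p = 0.00174), 9.35% on 14 (10 of 107, adjusted p = 0.00174) and 13.7% on 4 (20 of 146, adjusted p = 0.0237), each against all other chromosomes by Fisher's exact test over 40 tests. It was 33.9% on 17 (57 of 168, adjusted p = 0.00547) and 29.4% on 11 (88 of 299, adjusted p = 0.0303), by Fisher's exact test. The call for chromosome 11 was lost with library 2 alone (adjusted p = 0.0680, Fisher's exact test). Band limits of 0.3 and 0.7 lost the calls for 4, 11, 13 and 17 (adjusted p = 0.498, 0.446, 0.0502 and 0.0560, Fisher's exact test). Limits of 0.1 and 0.5 lost those for 11 and 17 (adjusted p = 0.573 and 0.1195, Fisher's exact test). Among records more than 5 bases from the read end, the call for 17 was lost (adjusted p = 0.136, Fisher's exact test). Middle records were almost missing from the low chromosomes, with 1 on chromosome 10, none on 13, 2 on 14 and 1 on 4, as well as 2 on X.

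Of records at 0.2 or more, 19 of 20 on chromosome 4 lay above 0.6 (95%, adjusted p = 1.95e-04, Fisher's exact test), as did 17 of 19 on X (89.5%, adjusted p = 0.00174) and all 6 on 13 (adjusted p = 0.0447). The 19 of chromosome 4 were all above 0.8, and 15 of the 17 on X were. On chromosome 11 the share was 18 of 88 (20.5%, adjusted p = 5.29e-07) and on 2 it was 20 of 64 (31.3%, adjusted p = 0.0250), by Fisher's exact test. Depth moved with these shares, and its part in them was not tested. Among records with at least 40 reads the adjusted p was 0.353 for chromosome 4, 0.461 for 13 and 0.242 for 2, and with at least 100 reads it was 0.295 for X, all by Fisher's exact test. For chromosome 13 the call was also lost without library 1 (adjusted p = 0.164) and without library 2 (adjusted p = 0.511), by Fisher's exact test. Band limits of 0.1 and 0.5 lost the calls for 2, 4, 13 and X (adjusted p = 0.243, 0.0519, 0.751 and 0.0988, Fisher's exact test). Limits of 0.3 and 0.7 lost that for 13 (adjusted p = 0.0874, Fisher's exact test). The Y chromosome held 4 further records and unplaced scaffolds 11, and these were not tested as chromosomes of their own.

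**Figure D5:**
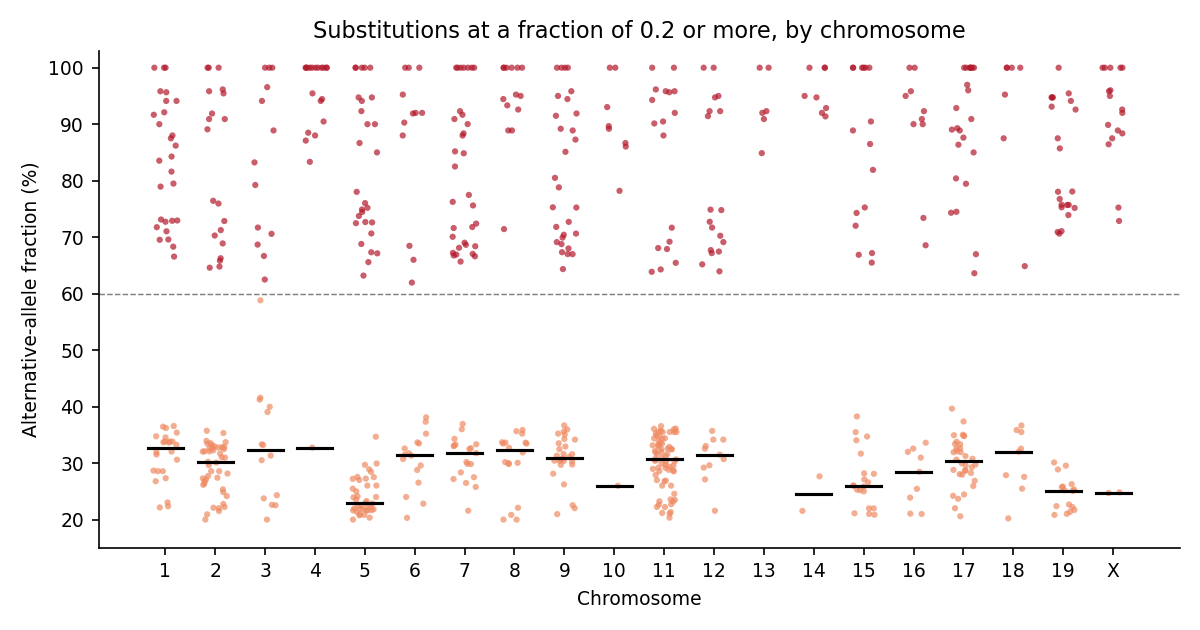
Alternative-allele fraction (vertical axis, %) of substitutions at 0.2 or more on each chromosome (horizontal axis), with points spread sideways at random; the black bar is the median of the records from 0.2 to 0.6 and the dashed line marks 60%. Chromosomes 4, 10, 13, 14 and X hold at most 2 middle records each, and the bars of 5 and 19 lie at 0.230 and 0.251 as fractions.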

How the data were processed

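RNA of the MBT2 line was sequenced in 2 poly(A), directional libraries of 75 bases from each end. Per the submitters' processing notes, reads were handled with bcl2fastq 2.17.1.14, cutadapt 1.9.1 and STAR 2.7.9a and called with GATK 4.3.0, while the file headers name GATK 4.1.5.0, Mutect 2.2 and SnpEff 5.1d with database 105 for GRCm39. Both libraries were called jointly with no matched normal. Per the file headers, the filters allowed at most 2 events in a region and asked for a median mapping quality of 30, a base quality of 20 and a read position of 1. All records deposited had passed.

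The deposited values are read counts of the reference and alternative allele per library, and the fraction was computed from their sum. The authors' annotation gave effects, and the caller's own fraction was an alternative. Strand and codons came from GENCODE M21 by transcript and gene name.

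Tests were two-sided Fisher exact tests (scipy 1.17.1) with Benjamini-Hochberg adjustment, called at 0.05, and were checked on simulated data. Records were named by a rule: truncating, start, stop and splice changes at 0.2 or more, the 15, 15 and 10 deepest missense records of the bands, the 5 genes with most records in each band, protein-altering records of listed genes, the records nearest the limits, genes with records in both upper bands, and the smallest p between libraries. Some examples at lower fractions were chosen after their values were seen. The members and lists were chosen with earlier results of these data known. Some results are not reported here.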

Additional observations from a re-analysis of the deposited data

How the results depend on the processing

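Depth limits what can be listed near equal shares, and most lower records rest on few alternative reads (median 6). With 40 or more reads the upper band held 171 records and 6 effect tests passed, against 16 of 20. The odds ratio of intergenic records at 0.2 or more turned to 0.941 and that of C>A above 0.6 to 1.12. Keeping the deepest record of each gene left 226 upper records. Limits of 0.1 and 0.5 gave 735 middle records, 6 chromosome calls against 11, and 84.3% in the same band. With these limits in place of 0.2 and 0.6, the odds ratio turned to 1.47 for T>G at 0.1 or more. It turned to 1.06 for C>A and 0.724 for T>C above 0.5. Limits of 0.3 and 0.7 gave 242 middle records and turned the odds ratio of chromosome 5 above 0.7 to 3.33. With 20 or more reads in each library, 96.7% stayed in the same band. In 2 alternatives chosen after seeing the data, records more than 5 bases from the read end left 877 lower records and 3 of 6 base-change calls, and turned intronic, upstream or downstream, and intergenic records at 0.2 or more to 0.896, 0.531 and 0.786. With 100 or more reads, 127 upper and 1394 lower records and 4 effect calls remained, with intergenic at 0.739 and C>A above 0.6 at 1.20. These alternatives use fewer records or other limits, and any further cause was not tested. Either library alone gave 350 to 352 upper, 385 to 409 middle and 2408 to 2434 lower records. No setting called a difference between libraries. Where a table had an empty cell, 0.5 was added to each cell for the odds ratio. No paired analysis was possible because the 2 libraries belong to 1 line and there is no second group to pair them with.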

Other observations

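Outside the gene lists, 2 genes stood out by repeated low records of the same base change. Gm2682 held 5 intronic records from 5.88% to 8%, all T>C on the RNA strand. Lmbrd2 held 5 records, all A>G on the RNA strand: the 4 in its 3′ UTR ranged from 3.37% to 5.26%, and a synonymous one was read at 17.5%. In Lmbrd2, RNA editing and DNA alleles cannot be told apart. For Gm2682 the strand came from the annotation and not from the reads, and the cause of its records was not tested.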
